A study of Caenorhabditis elegans with 12 samples.

Results

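The genes described here encode the FMRFamide-like peptides (flp), the other neuropeptide-like proteins (nlp) and the insulin-like peptides (ins) of C. elegans. They were chosen by name alone, as every gene in the deposited table that is called flp, nlp or ins followed by a number. This gave 80 of 12595 genes, of which 30 are flp, 35 are nlp and 15 are ins genes. The current annotation names 140 genes in these families, and 42 of them (23 ins, 18 nlp and 1 flp gene) were not analysed here. Neither were further nlp genes that stand in the table under sequence names, which the rule by name does not take in. The members nlp-10, nlp-37, nlp-38 and nlp-42 are now called npl-10, pdf-2, mihp-1 and mihp-2.

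Neuropeptides are made as longer precursors that are cut by proprotein convertases, trimmed and often amidated, and are then packed into dense core vesicles. Most flp and nlp genes are expressed in small sets of neurons and act through G protein-coupled receptors on feeding, movement, egg laying and sleep-like states, while a group of nlp genes is expressed in the epidermis and encodes antimicrobial peptides. The insulin-like peptides are ligands of DAF-2, the single insulin/IGF-1 receptor of the worm, and some of them activate it while others antagonise it.

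RNA came from whole hermaphrodite populations kept at 25°C and harvested as day 1 adults, each library from many pooled animals. Wild type (WT) was the strain N2, and glp-1(ts) was the strain with the temperature-sensitive allele glp-1(bn18ts), which lacks most of its germline at this temperature because the Notch receptor GLP-1 is needed by germline stem cells. Animals of each strain were fed bacteria with the empty L4440 vector or bacteria that express skn-1 double-stranded RNA, and no drug against reproduction was used, so that WT adults carried a germline and eggs. SKN-1 is the worm ortholog of the Nrf stress response factors. This gave 4 groups of 3 biological replicates, compared to ask how germline loss changes gene expression and how much of the change needs SKN-1. The values are log2 CPM (log2 counts per 1e6 reads), quantile-normalized by the authors so that all libraries have nearly the same distribution. The number of reads per library is unknown from them, and no counting interval is given.

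Some facts of all libraries bear on every value below. In WT, skn-1 mRNA was at 6.38, 6.50 and 6.10 log2 CPM on vector and at 4.56, 5.03 and 4.37 on skn-1 RNAi, a called fall. In glp-1(ts) it was at 6.07, 6.17 and 6.23 on vector and at 5.73, 6.60 and 6.08 under the skn-1 RNAi label, where it did not pass the test (log2 fold change −0.02). Those libraries are therefore named by their label. All 12 germline markers fell in glp-1(ts) on vector, with a mean level of 7.31 to 7.62 in the WT libraries and of 3.87 to 5.06 in the mutant libraries, the highest being replicate 3. All 7 intestine and 9 body wall muscle markers rose and 9 of 12 pan-neuronal markers did (1 of 4 sperm markers also rose), while 5 of 8 epidermis markers fell and 2 rose. A whole animal without germline gives a larger share of its RNA from the soma, and a change in RNA per cell cannot be told apart from a change in that share.

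Before the strains are compared, the levels in WT on vector give the order of the members. Expressed per kilobase of exon, the nlp genes ranged from 0.659 to 94.2 CPM per kb with a median of 4.14. The flp genes ranged from 0.801 to 16.7 with a median of 3.42, and the ins genes from 0.424 to 9.30 with a median of 1.42. The highest member was nlp-40, whose peptide is secreted by the intestine and triggers the expulsion step of defecation. It was followed by nlp-27 at 65.4, nlp-36 at 53.4, nlp-33 at 39.5 and nlp-24 at 36.0 CPM per kb. Of these, nlp-27, nlp-33 and nlp-24 belong to the epidermal group. The highest flp gene was flp-6 at 16.7, and the highest ins gene was ins-7 at 9.30 CPM per kb. At the other end, 22 members had a mean below 0 log2 CPM in WT on vector, and 4 (flp-34, nlp-19, ins-19 and ins-35) were at the lowest value of the table, −4.35, in at least 1 library.

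On vector, most of these genes were more abundant in glp-1(ts) animals. Of the 80 members, 61 rose and 1 fell, and 18 did not pass the test (limma, adjusted p under 0.05 by Benjamini-Hochberg over all genes tested). Across all genes 39.4% were called higher and 38.0% were called lower, so that the members' split differs from that of the table. The median log2 fold change was 1.44 for the members and 0.27 for all genes. In the flp family 27 of 30 genes rose and none fell (median 1.39). In the nlp family 27 of 35 rose and none fell (median 1.55), and in the ins family 7 of 15 rose and 1 fell (median 1.02). The 3 glp-1(ts) libraries did not overlap the 3 WT libraries for 63 members that were higher and 1 that was lower, against 41.4% and 39.7% of all genes.

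**Figure D1:**
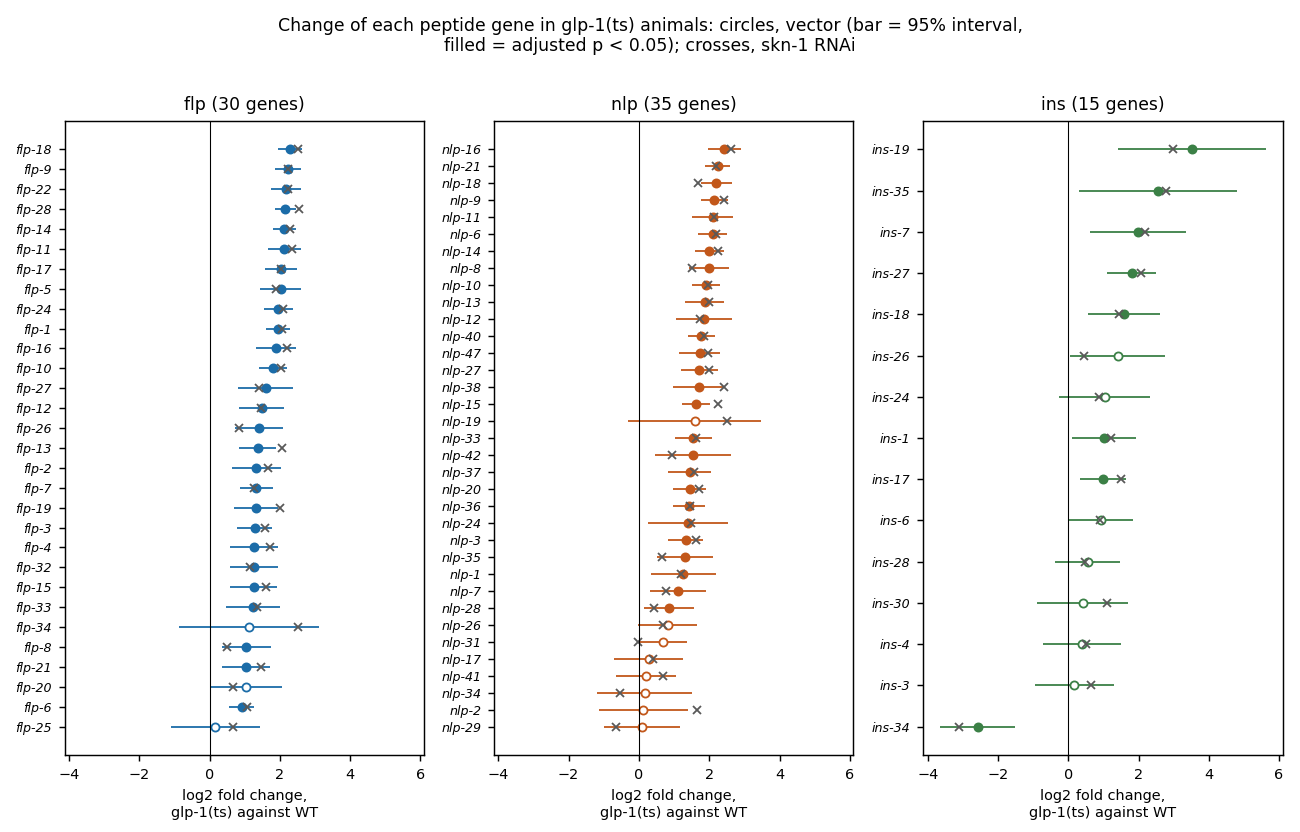
Log2 fold change of each member in glp-1(ts) against WT (x axis), with flp, nlp and ins genes in separate panels and genes sorted by the vector comparison. Circles are the vector libraries (filled where adjusted p was under 0.05, bars are 95% intervals) and crosses the skn-1 RNAi libraries. All but 1 of the called members lie to the right of 0, the exception being ins-34.

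Summed over the 80 members, the CPM was 340.2, 302.2 and 333.2 in the WT vector libraries and 1144, 1051 and 939.6 in the glp-1(ts) vector libraries. The lowest glp-1(ts) library was thus far above the highest WT library. The gene nlp-40 alone made up 20.1% to 21.2% of this sum in WT and 20.2% to 23.9% in glp-1(ts). Without nlp-40, the nlp genes summed to between 125.3 and 155.6 CPM in WT and to between 419.7 and 476.4 CPM in glp-1(ts).

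The largest rises of the flp family were in flp-18, flp-9, flp-22, flp-28, flp-14 and flp-11. The gene flp-18 (WBGene00001461, chromosome X, 3012182 to 3018555 of WBcel235) encodes ligands of the receptors NPR-1, NPR-4 and NPR-5 that act in foraging and fat storage. It was at 2.65, 2.55 and 2.63 log2 CPM in WT and at 5.00, 4.81 and 4.87 in glp-1(ts) on vector. These groups stood well apart, a rise of 2.28 on the log2 scale (standard error 0.16, adjusted p = 6.07e-08, limma, Benjamini-Hochberg). On skn-1 RNAi it was at 2.72, 2.48 and 2.96 in WT and at 5.23, 5.10 and 5.38 in glp-1(ts). The other 5 genes rose by between 2.13 and 2.22 on the log2 scale. FLP-11, from the RIS neuron, is a main signal of developmentally timed sleep. The gene flp-6, expressed in sensory neurons, had the highest flp level per length and the smallest called rise. It was at 3.62, 3.59 and 3.62 log2 CPM in WT and at 4.52, 4.39 and 4.64 in glp-1(ts), a log2 fold change of 0.91. The member nearest to 0 was flp-25, at −0.20, −0.96 and −0.30 in WT and −0.45, 0.45 and −0.96 in glp-1(ts), where the groups overlapped and the sign turned without single libraries. The other flp genes that did not pass the test on vector were flp-20 (1.03) and flp-34 (1.12).

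Among the nlp genes the largest rises were in nlp-16, nlp-21, nlp-18, nlp-9, nlp-11 and nlp-6, each above 4-fold. The gene nlp-16 (WBGene00003754, chromosome IV, 6255049 to 6259832) was at 2.01, 1.49 and 2.10 log2 CPM in WT and at 4.29, 4.38 and 4.20 in glp-1(ts) on vector. The rise of 2.42 on the log2 scale (standard error 0.22, adjusted p = 3.66e-07, limma, Benjamini-Hochberg) was far larger than the spread within either group. The other 5 rose by 2.10 to 2.25 on the log2 scale. In all, 17 members were called with a rise above 4-fold on vector, against 10.4% of all genes. The most abundant member, nlp-40 (WBGene00022276, chromosome I, 11495 to 16837), was at 6.14, 6.0 and 6.07 in WT and at 8.09, 7.89 and 7.57 in glp-1(ts). It rose by 1.78 on the log2 scale (standard error 0.18), from 94.2 to 326.8 CPM per kb. The nlp genes that did not pass the test were nlp-2, nlp-17, nlp-19, nlp-26, nlp-29, nlp-31, nlp-34 and nlp-41.

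**Figure D2:**
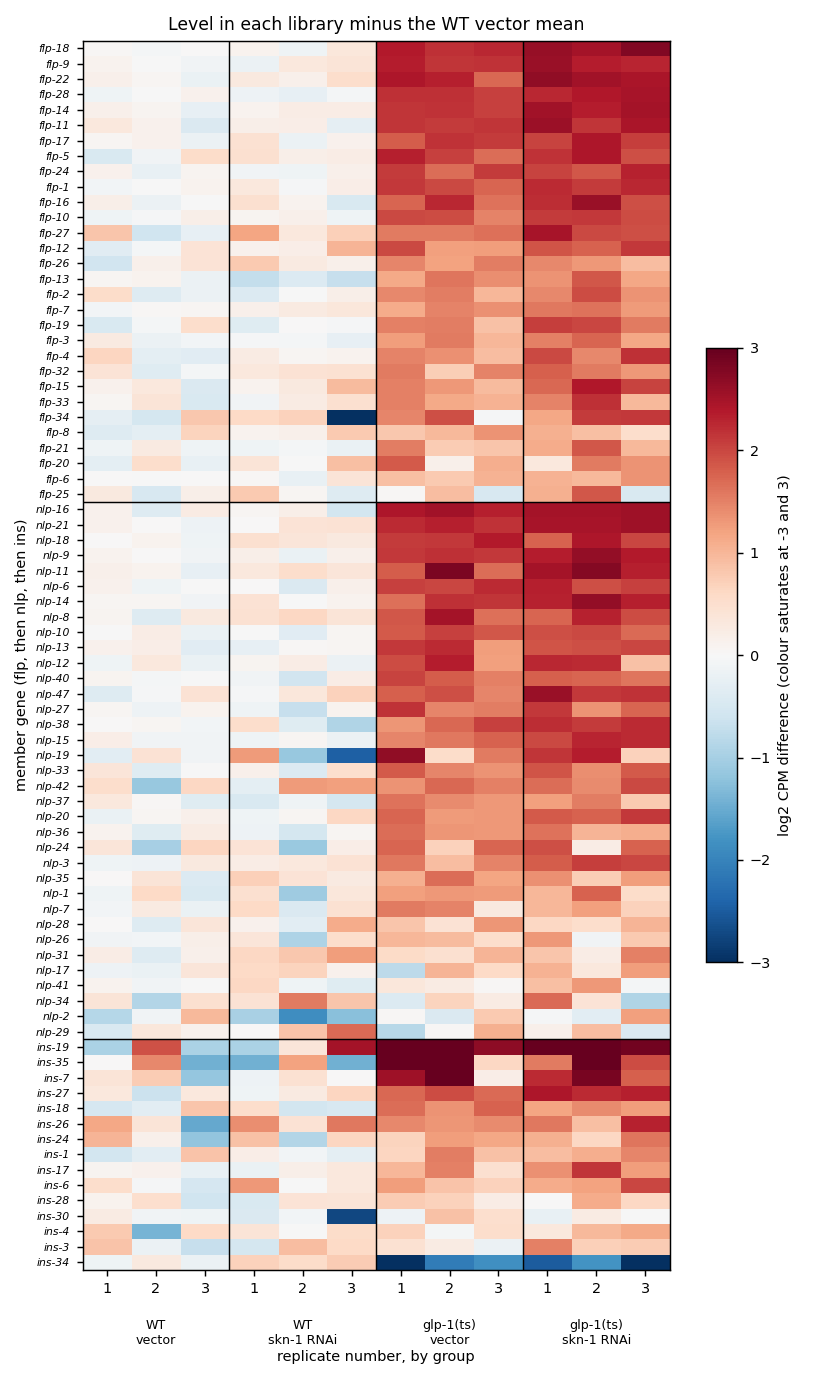
Level of every member (rows, flp then nlp then ins, sorted by change) in each of the 12 libraries (columns) as the log2 CPM difference from its WT vector mean. The 6 glp-1(ts) columns are red for most flp and nlp genes, and the ins rows are more mixed, with ins-34 blue in all 6.

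Members were also grouped by a known shared role. All 6 measured peptides with a role in sleep-like quiescence rose on vector, with log2 fold changes from 1.38 (flp-13) to 2.28 (flp-18). Most genes of their families rose as well (27 of 30 flp and 27 of 35 nlp genes, against 39.4% of all genes), so that the count sets no subset apart. FLP-13, FLP-24 and NLP-8 are released by the ALA neuron in the quiescence that follows cellular stress, and flp-24 and nlp-8 rose by 1.95 and 2.00. The gene nlp-14, also linked to this quiescence, rose by 2.00. All 7 peptides with roles in egg laying or defecation rose as well, to be read against the same family counts. FLP-10 and FLP-17 inhibit egg laying through the receptor EGL-6, and their genes rose by 1.80 and 2.03. NLP-3, which promotes egg laying, and NLP-7, which inhibits it, had rises of 1.33 and 1.11. The rise of nlp-7 lost its call without glp-1(ts) vector replicate 1 (adjusted p = 0.0644, limma, Benjamini-Hochberg) or replicate 2 (0.0577), and on skn-1 RNAi its difference of 0.78 did not pass the test. FLP-1, made by the AVK neurons and active in locomotion, and FLP-2, active in arousal and defecation, had rises of 1.95 and 1.33.

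Of 8 measured epidermal nlp genes, 4 rose on vector (nlp-24, nlp-27, nlp-28 and nlp-33) and 4 did not pass the test. On skn-1 RNAi 3 of the 8 rose, and nlp-28 did not (0.42). Both counts are near the shares of all genes called higher, 39.4% and 41.7%. A run of 5 of them, nlp-34, nlp-31, nlp-29, nlp-28 and nlp-27, lies within 10946 bases of chromosome V (3978825 to 3989770 of WBcel235). At one end of this run, nlp-27 was at 4.42, 4.21 and 4.46 log2 CPM in WT and at 6.53, 5.83 and 5.90 in glp-1(ts), a rise of 1.72 (standard error 0.24). Its neighbours nlp-28 and nlp-31 had log2 fold changes of 0.86 and 0.69, of which the first was called. The gene nlp-29, the best known reporter of fungal infection and wounding in the epidermis, was at 1.45, 2.27 and 2.03 in WT and at 1.08, 1.94 and 2.98 in glp-1(ts). Here the groups overlapped fully, and the log2 fold change of 0.09 (standard error 0.50) did not pass the test. It ran from −0.40 to 0.54 when single libraries were left out, and on skn-1 RNAi it was −0.64, also not called. The value for nlp-34 was 0.17. The difference between these neighbours was not itself tested. The pattern of the general epidermis markers, 2 of 8 higher and 5 lower, is given above, and its part in these values was not tested.

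Outside this run, nlp-33 rose by 1.55 and nlp-24 by 1.39. The gene nlp-24 was at 3.97, 2.61 and 4.24 log2 CPM in WT and at 5.34, 4.31 and 5.35 in glp-1(ts) with the vector. With skn-1 RNAi it was at 4.01, 2.5 and 3.81 in WT and at 5.54, 3.82 and 5.39 in glp-1(ts). Replicate 2 was the lowest library of every group for this gene. The same held for 7 of the 80 members (flp-6, flp-18, flp-24, nlp-6, nlp-24, nlp-27 and nlp-28), and for 6.11% of all genes. The call for nlp-24 on vector (adjusted p = 0.0272, limma, Benjamini-Hochberg) was lost without WT vector replicate 2 (0.139), glp-1(ts) vector replicate 1 (0.0869) or replicate 3 (0.0810). That for nlp-28 (adjusted p = 0.0298) was lost without any of WT vector replicates 1 and 2 and glp-1(ts) vector replicates 1 and 3 (0.0574 to 0.119).

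**Figure D3:**
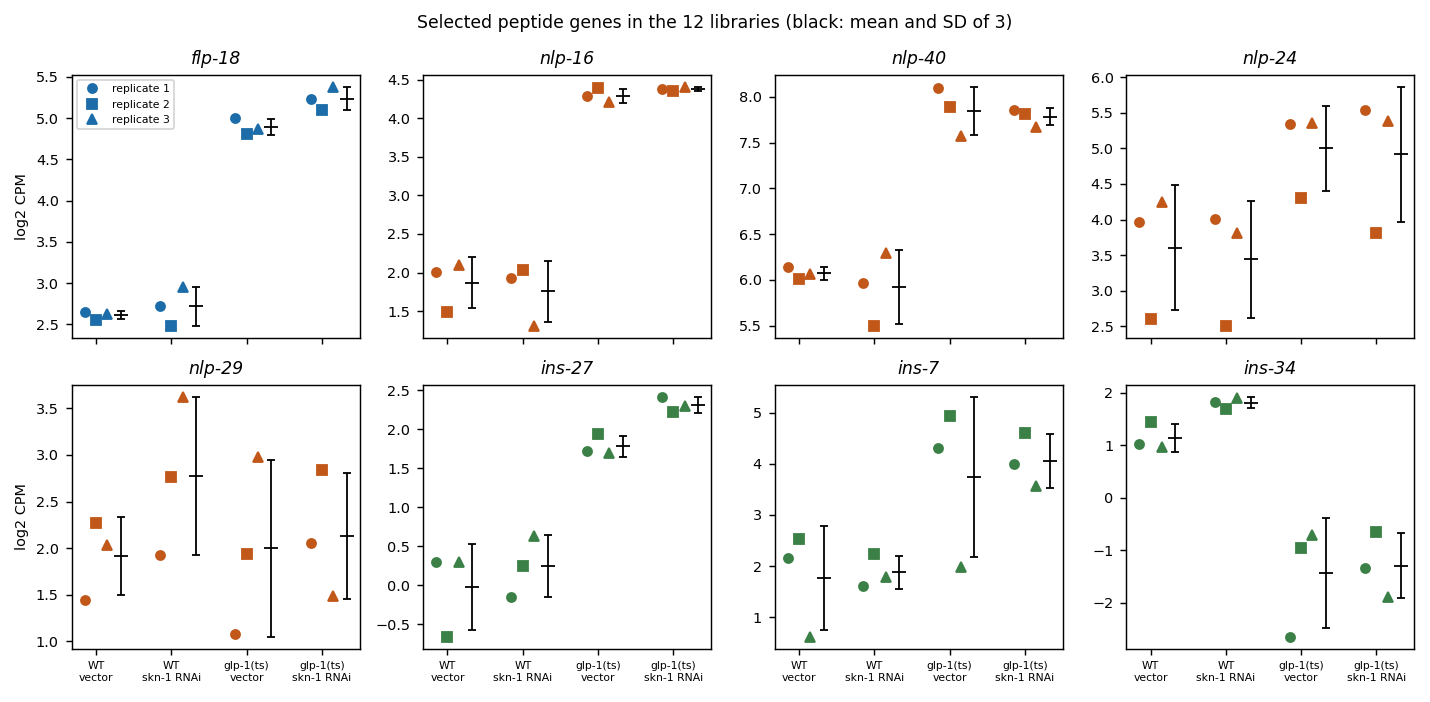
Log2 CPM (y axis, a separate scale in each panel that does not start at 0) of 8 members in the 4 groups, with one symbol for each replicate number and the mean and SD of 3 libraries in black. The glp-1(ts) groups lie above the WT groups for flp-18, nlp-16, nlp-40 and ins-27 and below them for ins-34, the nlp-29 groups overlap, and replicate 2 is the lowest nlp-24 library in every group.

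The ins family held the only fall, and 7 of its genes did not pass the test. Only 8 of the 15 had a mean of at least 1 CPM, against 69 of all 80 members. The gene ins-34 (WBGene00002117, chromosome IV, 14106574 to 14107737) was at 1.02, 1.45 and 0.96 log2 CPM in WT and at −2.65, −0.96 and −0.71 in glp-1(ts) on vector. All WT libraries were above all glp-1(ts) libraries, and the gene fell by 2.58 on the log2 scale (standard error 0.50, adjusted p = 3.34e-04, limma, Benjamini-Hochberg). On skn-1 RNAi it was at 1.83, 1.70 and 1.91 in WT and at −1.34, −0.66 and −1.88 in glp-1(ts), and fell by 3.11. Its exons overlap those of nkcc-1, on the other strand, by 82 bases, and the sources used here name no strand setting for the counting. The level of nkcc-1 was between 6.26 and 6.47 log2 CPM in WT and between 5.84 and 6.01 in glp-1(ts) on vector, a fall of 0.44. Reads of the pair cannot be told apart in the overlap.

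Among called ins genes whose groups did not overlap, the rises in order of size were those of ins-19, ins-27, ins-18 and ins-17. The gene ins-27 (WBGene00002110, chromosome I, 14027236 to 14027588) was at 0.30, −0.66 and 0.30 log2 CPM in WT and at 1.72, 1.94 and 1.69 in glp-1(ts) on vector. These groups did not overlap, with a rise of 1.80 (standard error 0.32, adjusted p = 1.54e-04, limma, Benjamini-Hochberg). It lies in a run of 5 ins genes within 25409 bases, and the other 4 (ins-24, ins-26, ins-28 and ins-30) had log2 fold changes from 0.41 to 1.40 that did not pass the test. For ins-19 the WT vector values were −4.35, −1.46 and −4.35 and the glp-1(ts) values −0.15, 1.28 and −0.71, so that its log2 fold change of 3.53 (standard error 0.98) is set against the lowest value of the table. The same holds for ins-35, at −2.89, −1.46 and −4.35 in WT and 0.53, 0.71 and −2.27 in glp-1(ts). Its groups overlapped, and its call (adjusted p = 0.0388, limma, Benjamini-Hochberg) was lost in 5 of the 12 fits without 1 library (up to 0.146). Of the called ins genes, ins-1, ins-18, ins-19, ins-27 and ins-35 are among the 22 members with a mean below 0 log2 CPM in WT on vector. The authors kept genes with at least 1 CPM in 2 or more samples, so such members could enter through the glp-1(ts) libraries. This filter favours rises among them, and its part in the counts of rises was not tested.

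By their known effect on DAF-2, 2 of 5 measured agonists rose on vector, ins-7 and ins-35, and ins-3, ins-4 and ins-6 did not pass the test (0.18, 0.38 and 0.93). This share is that of all genes called higher, 39.4%. The insulin gene daf-28, whose product also activates DAF-2, is named otherwise and rose by 1.27. The genes ins-3, ins-4 and ins-6 lie within 10911 bases of chromosome II. All 3 measured antagonists rose, ins-1 by 1.02, ins-17 by 0.99 and ins-18 by 1.59. The call for ins-1 (adjusted p = 0.0412, limma, Benjamini-Hochberg) was lost without WT vector replicate 1 (0.157), WT vector replicate 2 (0.123), glp-1(ts) vector replicate 2 (0.156) or replicate 3 (0.0569), and in the fit without glp-1(ts) skn-1 RNAi replicate 2 (0.0504). The call for ins-17 was lost without glp-1(ts) vector replicate 2 (0.0511).

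The gene ins-7 (WBGene00002090, chromosome IV, 9682011 to 9682845), an agonist expressed in intestine and neurons, was at 2.15, 2.53 and 0.62 log2 CPM in WT and at 4.32, 4.94 and 1.97 in glp-1(ts) on vector. Replicate 3 was the lowest library in both groups, and the groups overlapped. The gene was called with a log2 fold change of 1.98 (standard error 0.63, adjusted p = 0.0115, limma, Benjamini-Hochberg), and this p went to 0.0635 without WT vector replicate 3 and to 0.0653 without glp-1(ts) vector replicate 2. On skn-1 RNAi the values were 1.61, 2.24 and 1.79 in WT and 4.00, 4.61 and 3.56 in glp-1(ts), with no overlap. Without glp-1(ts) vector replicate 2, only 3 ins genes were called higher on vector.

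The comparison of the strains was made a second time in the libraries labelled skn-1 RNAi. It shares no library with the vector comparison, but a joint fit of all 12 libraries gave both the same estimate of the spread. The calls of the 2 comparisons are therefore not independent. The strains also differed here in skn-1 mRNA, which was higher in glp-1(ts) by 1.49 on the log2 scale (called), against −0.17 on vector (not called). Germline loss and the unequal skn-1 level cannot be told apart in these libraries. There 59 members rose (27 flp, 25 nlp and 7 ins genes) and ins-34 fell, against 41.7% of all genes higher and 38.1% lower. The median log2 fold change was 1.63 for the members and 0.32 for all genes. Of the 80 members, 77 had the same sign in both comparisons, and 56 were called higher in both, against 36.2% of all genes. The groups did not overlap for 60 members that were higher and 1 that was lower, against 42.2% and 38.4% of all genes. The genes flp-34 and nlp-2 were called on skn-1 RNAi (log2 fold changes 2.51 and 1.66) and not on vector. The call of nlp-2 was lost without WT skn-1 RNAi replicate 2 (adjusted p = 0.0646, limma, Benjamini-Hochberg) or glp-1(ts) skn-1 RNAi replicate 3 (0.103), and that of flp-34 was not recomputed in this way. For flp-34, WT skn-1 RNAi replicate 3 was at −4.35, the lowest value of the table, and the other libraries of its group were at −0.33 and −0.24. For nlp-2 the WT libraries were at −1.21, −0.45 and 0.62 on vector and at −1.31, −2.21 and −1.61 on skn-1 RNAi, while the glp-1(ts) libraries ranged from −0.79 to 0.88. The difference between the 2 comparisons is the difference of the skn-1 RNAi effects and is given below.

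Genes that make, release and receive these peptides were read from lists written for this purpose. Of 11 precursor processing genes, 10 rose on vector with a median log2 fold change of 1.96. They include egl-3, the proprotein convertase (2.23), egl-21, the carboxypeptidase (2.11), and pghm-1, an amidating enzyme (2.18). The exception was bli-4 (0.05), a convertase used for cuticle collagens. Of 9 measured genes for dense core vesicle release, 7 rose (median 1.28), among them ida-1 (2.01), egl-8 (1.66) and tom-1 (1.53). Of 45 receptor genes measured, 17 rose, 2 fell and 26 did not pass the test (median 0.86), a share of rises near the 39.4% of all genes. The receptors of several named peptides are among them. The gene for NPR-5, a FLP-18 receptor, rose by 1.97, while npr-4, for another FLP-18 receptor, had a log2 fold change of 0.70 that did not pass the test. The gene for DMSR-1, a FLP-13 receptor, rose by 1.00, and that for EGL-6, the receptor of FLP-10 and FLP-17, fell by 0.86. On skn-1 RNAi 26 of the 45 receptor genes rose and 1 fell, against 41.7% and 38.1% of all genes. There the share of rises was above that of all genes, and egl-6 did not pass the test (0.12). The receptors were low, with a list mean between −0.31 and −0.12 log2 CPM in the WT vector libraries. Low receptor genes could also pass the filter of the authors through the glp-1(ts) libraries, which favours rises, and its part in these counts was not tested.

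Of 10 peptide-degrading enzymes, 7 rose and 1 fell (median 1.71), with rises of 2.32 for nep-2, a neprilysin, and 1.96 for dpf-2, and a fall of 0.76 for dpt-1. In the insulin pathway downstream of the ins genes, 5 of 12 measured genes were higher and 5 lower (median 0.02), near the 39.4% and 38.0% of all genes. The receptor gene daf-2 fell by 0.60, and akt-2, a kinase, rose by 2.03. Peptide genes with names of another kind all rose in the 3 that were measured, by 1.27 for daf-28, 1.46 for snet-1 and 2.24 for pdf-1. On skn-1 RNAi the same lists gave 10 of 11 processing, 8 of 9 vesicle release and 7 of 10 degrading enzyme genes higher (41.7% of all genes).

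**Figure D4:**
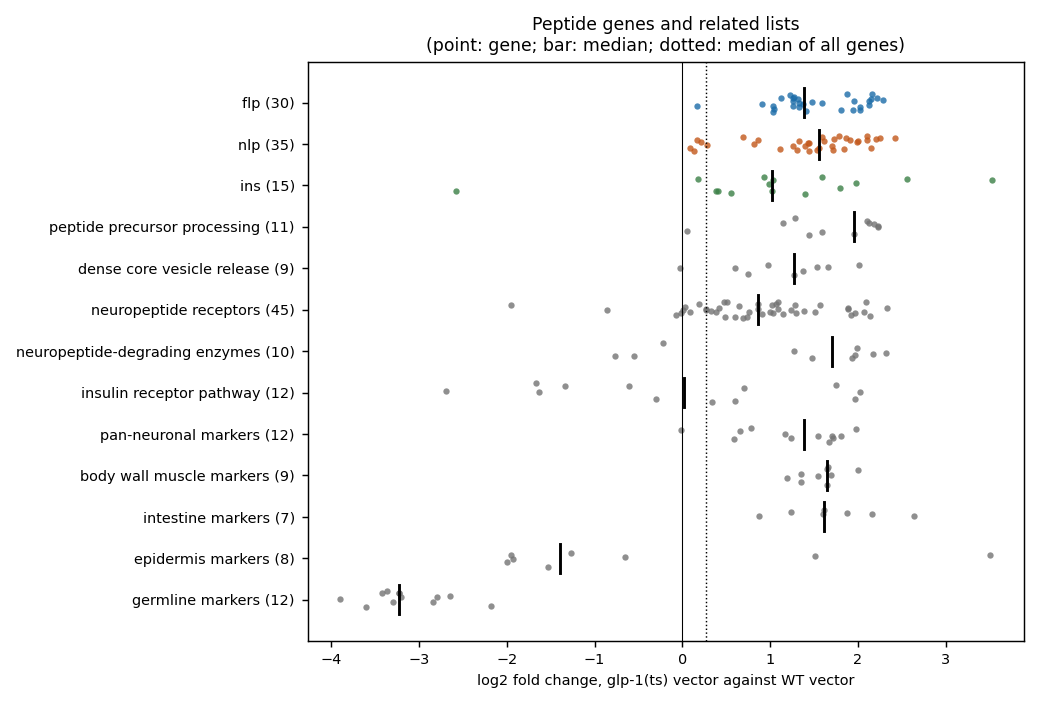
Log2 fold change in glp-1(ts) against WT on vector (x axis) for single genes (points) of the 3 peptide families and of related lists, with the number measured in parentheses. Black bars are list medians and the dotted line is the median of all genes, 0.27. The flp, nlp, processing, neuron, muscle and intestine lists lie mostly between 1 and 2.5, and the germline list lies below −2.

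Since the neuron, muscle and intestine lists also rose, the members were also compared with general neuronal genes. The mean of the 12 pan-neuronal markers, which on vector was 2.34 ± 0.10 log2 CPM for WT (SD, n = 3) and 3.58 ± 0.14 for glp-1(ts) (SD, n = 3), was subtracted from every gene in each library before the same fit. Relative to these markers 23 members (12 flp and 11 nlp genes, no ins gene) were called higher and 2 lower on vector, against 12.2% and 53.8% of all genes. The median fell from 1.44 to 0.20 for the members and from 0.27 to −0.97 for all genes. The highest called members were nlp-16 (1.19), flp-18 (1.04), nlp-21 (1.01) and flp-9 (0.99). The lower ones were ins-34, which fell by 3.82, and nlp-41, which fell by 1.03 with an adjusted p of 0.0414 (limma, Benjamini-Hochberg). This last call was lost without any 1 of the 6 vector libraries (0.0660 to 0.0877). On skn-1 RNAi 17 members were higher and 8 lower, against 10.7% and 56.5% of all genes, and 15 members were higher in both, against 8.70%. Without glp-1(ts) skn-1 RNAi replicate 1 only 9 were higher there, and without WT skn-1 RNAi replicate 2 only 11.

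These counts depended on which tissue served as the base. The markers snb-1 and unc-11, which other cells also use, had log2 fold changes of 0.59 and −0.02, the smallest of the list. Without them (an alternative added after the values were seen), 15 members were higher and 5 lower on vector, and 8 were higher and 15 lower on skn-1 RNAi. Of all genes, 8.30% were then higher and 56.7% lower on vector, and 6.65% and 59.4% on skn-1 RNAi. Relative to the body wall muscle markers, 4 members were higher and 8 lower on vector (4.65% and 57.6% of all genes), with a member median of −0.13. On skn-1 RNAi 4 were higher (5.02% of all genes higher, 58.7% lower), and the count of members lower is not reported here. Relative to the intestine markers, 2 were higher and 14 lower (3.24% and 60.9% of all genes), with a member median of −0.27. On skn-1 RNAi 0 were higher and 23 lower (2.20% and 66.1% of all genes). A base moves all genes of a library by the same amount, so the sign of a family median is set by its choice. Relative to muscle the medians were −0.18 for flp, −0.01 for nlp and −0.55 for ins genes, and −1.30 for all genes.

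The effect of skn-1 RNAi was compared with the vector in each strain. No member was called in WT (limma, Benjamini-Hochberg), where 22 genes, 0.175% of all, passed the test (0.0794% higher, 0.0953% lower). At an unadjusted p under 0.05, 1 member was higher and 2 were lower, against 2.06% and 3.90% of all genes. Those were nlp-31, with a log2 fold change of 0.89 (standard error 0.31), flp-13 with −0.60 (0.24) and nlp-2 with −1.36 (0.59). The gene flp-13 was at 1.40, 1.45 and 1.15 log2 CPM on vector and at 0.63, 0.91 and 0.64 on skn-1 RNAi, with no overlap. The values of nlp-31 were 1.96, 1.35 and 1.89 on vector and 2.35, 2.55 and 2.99 on skn-1 RNAi. The adjusted p-values of these 3 genes by limma (Benjamini-Hochberg) were 0.565 to 0.771.

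For glp-1(ts), comparing the libraries under the skn-1 RNAi label with the vector called no member either, and 45 genes, 0.357% of all, passed the test by limma with Benjamini-Hochberg adjustment (0.0556% higher, 0.302% lower). At an unadjusted p under 0.05, 6 members were higher and none lower, against 4.12% and 6.34% of all genes. The smallest p-values were those of nlp-15, with a log2 fold change of 0.56 (standard error 0.19), nlp-3 with 0.64 (0.24) and flp-15 with 0.79 (0.31), and their adjusted p-values by limma (Benjamini-Hochberg) were 0.301 to 0.385. The gene nlp-15 was at 3.15, 3.27 and 3.45 log2 CPM on vector and at 3.66, 3.96 and 3.92 under the skn-1 RNAi label. Its groups did not overlap.

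The difference of the skn-1 RNAi effects between the strains was called for no gene of the table. It was called for 0% of genes. At an unadjusted p under 0.05 by limma it gave 1 member, nlp-15, with a difference of 0.64 (standard error 0.26, adjusted p = 0.832), against 2.88% of all genes higher and 3.03% lower. The next were flp-28 (0.39) and flp-13 (0.69). The replicate number was also used as a block, which gives same-numbered libraries in the fit a shared term. With it, 0 members were again called in WT and 0 in glp-1(ts). The calls over all genes went from 22 to 59 and from 45 to 99.

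**Figure D5:**
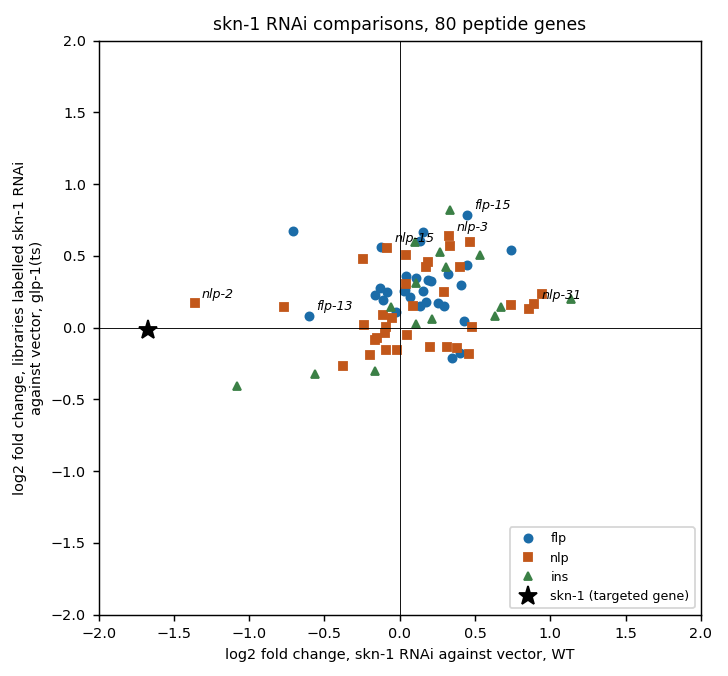
Log2 fold change of each member on skn-1 RNAi against vector in WT (x axis) and in glp-1(ts) under that label (y axis), with flp, nlp and ins genes as circles, squares and triangles. The star is skn-1 itself, at −1.67 in WT and −0.02 in glp-1(ts). No member passed the test on either axis.

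The members also shared features that the choice by name did not use. Of the 80, 21 (26.2%) lie on chromosome X, which holds 14.5% of all genes of the table. The share came from the flp family, with 13 of 30 on X, and from 8 nlp genes, while no ins gene lies there and 6 of 15 ins genes lie on chromosome I. The genes flp-28, flp-3 and flp-2 form a run of 3 within 7932 bases of X, and all 3 rose on vector (2.15, 1.28 and 1.33). On chromosome V, nlp-9 and nlp-13 lie within 18415 bases and rose by 2.15 and 1.87. The exons of 14 members overlap those of another gene, 12 of them a protein-coding gene on the other strand, and among the named genes the latter are flp-11, nlp-17, nlp-21, nlp-24, nlp-26, nlp-36 and nlp-41 besides ins-34.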

How the data were processed

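Whole-animal poly(A) RNA of 12 libraries was analysed. Per the submitters' notes and methods, the authors used STAR (WBcel235) for alignment of single reads and featureCounts (Subread) for counting, kept genes with at least 1 CPM in 2 or more samples, and deposited voom log2 CPM after quantile normalization, which hides depth and fixes the overall distribution. The per-sample files held the same log2 values as the table in 12 of 12 cases. The 4 group means were estimated together from all 12 libraries (limma version 3.58.1, R version 4.3.3, empirical Bayes with a trend, 8 residual degrees of freedom), with Benjamini-Hochberg adjustment over 12595 genes and a threshold of 0.05. In simulated data 100 of 12595 genes were changed by each amount. For the vector comparison of the strains the fit called 52% of those changed by 1 log2 unit and 85% of those changed by 2. For skn-1 RNAi in WT it called 40% and 85%. In the data 77.4% of genes were called between the strains on vector. The simulated setting differs from this, so its shares do not give the recovery of that comparison.

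The members, lists and tests were chosen with earlier results of these data known. Genes named one by one were the 6 flp, 6 nlp and 4 ins genes with the largest called rise, up to 3 falls per family, those nearest 0 or highest in level, the functional subsets, the smallest p-values of each skn-1 RNAi comparison, and the 4 highest and lowest relative to neurons. A few others (flp-20 and flp-34, the uncalled nlp genes, genes in runs) were named after their values were seen. Called genes with overlapping groups were not ranked (ins-7 and ins-35 are named as subset members). Lengths and positions came from Ensembl release 115 of WBcel235, in which all 80 IDs were found.

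Deviations of same-numbered vector and skn-1 RNAi libraries from their group means had correlations of 0.11, 0.31 and 0.25 for WT and 0.15, 0.34 and 0.23 for glp-1(ts), which was taken as pairing inside each strain. Across strains these correlations were 0.03, 0.16 and 0.12 on vector and 0.09, 0.16 and 0.04 on skn-1 RNAi. They were positive but lower for each number than inside a strain, and the main fit paired no libraries. Alternatives were other trends, weights, filters, centrings and bases, the block, and leaving out each library.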

Additional observations from a re-analysis of the deposited data

How the results depend on the processing

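Counts of members called higher in glp-1(ts) ranged from 56 to 62 on vector and from 55 to 60 on skn-1 RNAi when each library was left out in turn, and 1 member was lower in every such fit. By family on vector these ranges were 26 to 28 flp, 24 to 29 nlp and 3 to 8 ins genes. Relative to neuron markers, 17 to 24 were higher and 1 to 3 lower on vector, and 9 to 20 higher and 4 to 9 lower on skn-1 RNAi.

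Filters on low values removed members. At a mean of at least 1 CPM, 69 members were tested and 4 ins genes were higher in either comparison. At 4 CPM, 43 members were tested among 8704 genes. The means also take in the glp-1(ts) libraries, so a member can pass through the group where it is higher. The shares called among the genes left are not reported here, so the counts below have no background to be read against. On vector 40 members were higher (17 flp, 2 ins) and 0 lower, and on skn-1 RNAi 39 (17 flp, 2 ins) and 0, since ins-34 was no longer tested. Relative to neuron markers 0 were then lower on vector and 3 on skn-1 RNAi. With log2(CPM + 1), 14 and 25 were lower relative to neuron markers, and the shares of all genes under this setting are not reported here either. Adding 1 CPM shrinks the changes of low genes, for ins-35 on skn-1 RNAi from 2.79 to 0.57. The part of this in the counts was not tested. Relative to muscle 4 were higher and 8 lower on vector and 4 higher on skn-1 RNAi, where the lower count is not reported here. Relative to intestine the counts higher and lower were 2 and 14 on vector and 0 and 23 on skn-1 RNAi. Without snb-1 and unc-11 they were 15 and 5 on vector and 8 and 15 on skn-1 RNAi.

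The replicate block moved the members called higher on vector by adding nlp-26 (adjusted p = 0.0408) and nlp-31 (0.0172) to 62 calls in either direction, which gave 64. It moved no count of members by over 1.5 times. The block gives same-numbered libraries a shared term, while the main fit assumed no pairing of the strains. The fit of only the groups compared also called both genes on vector (0.00973 and 0.0371) and lost ins-1 (0.0768).

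Among the named genes recomputed in this way, leaving out single libraries turned the sign of uncalled members only. On vector the ranges were −0.40 to 0.54 for nlp-29, −0.30 to 0.61 for nlp-2, −0.22 to 0.48 for flp-25, −0.27 to 0.46 for nlp-34, −0.31 to 0.77 for ins-4 and −0.16 to 0.61 for ins-3, and on skn-1 RNAi −0.37 to 0.28 for nlp-31 and −1.19 to 0.10 for nlp-34. Over the named genes and alternatives, 2205 values kept direction and call, 47 lost a call, 21 gained one and 13 turned sign. Levels per kb with the longest transcript were compared for flp-6, nlp-40 and ins-7 only. For flp-6 and nlp-40 both lengths are the same (730 and 714 bases), so their levels could not move. That of ins-7 in WT on vector went from 9.30 to 9.93 CPM per kb. For the other members this dependence was not tested. Depth is unknown, so low members such as ins-19 and ins-35 cannot be given a counting error. The causes of these shifts were not tested apart from the smaller number of genes or samples.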
